A study of Mus musculus with 8 samples.

Results

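The nuclear genes of respiratory complexes II to V were described in RAW macrophages, a transformed mouse macrophage line, after a statin, lipopolysaccharide (LPS) or both. The genes were taken by name from the deposited expression table: every symbol that begins with Uqcr or Atp5, or with Cox followed by a digit of the structural families 4 to 8, and Sdha, Sdhb, Sdhc, Sdhd, Cyc1 and Cycs. This gave 49 of 24394 named entries, with 4 in complex II, 9 in complex III, 18 in complex IV, 17 in complex V and 1 for cytochrome c. The statin LPS cells received the statin and LPS, the ctl LPS cells LPS alone, the statin cells the statin alone, and the Ctrl cells neither, with 2 libraries a group and 8 in all. The statin was given at 7 µM in lipoprotein-deficient serum (lovastatin together with mevalonate, per the study), and LPS at 100 ng/ml for 3 h in medium with albumin. Whether cells without the statin had the same serum or mevalonate is not stated, so the statin comparisons are of that whole treatment, and the LPS comparisons may hold a change of medium. The study asked how lowering the cholesterol of resting macrophages with a statin alters their genes at rest and their response to LPS.

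Complex II oxidises succinate and passes the electrons to ubiquinone, complex III hands them on to cytochrome c, and complex IV delivers them to oxygen, while complexes III and IV pump protons out of the mitochondrial matrix. Complex V, the ATP synthase, lets the protons back through its membrane ring and uses the flow to make ATP. Macrophages given LPS are known to turn towards glycolysis and away from respiration, and succinate oxidation at complex II has been tied to their inflammatory signalling. The subunits of complex II and cytochrome c are all encoded in the nucleus, whereas complexes III, IV and V join nuclear subunits to a few made in the mitochondrion, and the mitochondrial genes were not analysed here.

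Sequence before the start sites was searched for 4 short motifs known from promoters of respiratory genes, since members that move together invite the question of what they share. RefSeq (GRCm38.p6) promoter entries matched 35 of the 49 members, with 38 start sites, and the 250 bases before each were read on both strands. The NRF1 motif, GCGCA and GCGC with any 1 base between them, lay before 7 of the 35 members, and its share was 18.4% of the member start sites against 3.74% of all 32851 start sites. The ETS motif, CCGGAAG, bound by GABP, lay before 9 members, in 23.7% of their start sites against 6.91% of all. CCAAT, the NF-Y motif, lay before 20 members, in 55.3% of their start sites against 33.8% of all, and the YY1 motif, AAGATGGCG, before 1 member, in 2.63% against 0.606%. Different motifs did not overlap each other. The NRF1 windows are shown because members with and without that motif are set side by side in the statin results. The ETS, YY1 and CCAAT windows are a selection from members discussed by name under LPS. Those of other such members, among them Cox7b and Atp5g1, are not shown. Each window has 30 bases, read 5′ to 3′ on the strand of the gene with the motif, or its other strand, in capitals.
Atp5c1, NRF1, chr2:10080433-10080462, minus strand: cgcctgagctcccGCGCACGCGCactgagt
Atp5g2, NRF1, chr15:102671070-102671099, minus strand: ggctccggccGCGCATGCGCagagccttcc
Atp5h, NRF1, chr11:115420041-115420070, minus strand: gaccccgacgGCGCAGGCGCcgcgcccgcc
Atp5k, NRF1, chr5:108434430-108434459, minus strand: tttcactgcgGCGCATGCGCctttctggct
Cox6a1, NRF1, chr5:115349101-115349130, minus strand: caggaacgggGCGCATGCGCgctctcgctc
Sdha, NRF1, chr13:74350319-74350348, minus strand: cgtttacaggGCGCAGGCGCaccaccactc
Sdhd, NRF1, chr9:50603909-50603938, minus strand: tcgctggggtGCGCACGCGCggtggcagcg
Uqcr11, ETS, chr10:80406870-80406899, minus strand: tttctctcctccCCGGAAGtagatgtcaat
Cox6b1, ETS, chr7:30626125-30626154, minus strand: ctcctctcgcagCTTCCGGccagtcggaat
Atp5j, ETS, chr16:84835020-84835049, minus strand: tagctgagggacCCGGAAGcacttaccctc
Atp5j, YY1, chr16:84835046-84835075, minus strand: aaagtgtaggaAAGATGGCGgagtcttagc
Atp5g3, CCAAT, chr2:73911382-73911411, minus strand: cctctgagagttaCCAATaaagttgttaca
Atp5j2, CCAAT, chr5:145191762-145191791, minus strand: ATTGGgaatggaaccagagccttaagcact
Uqcr10, CCAAT, chr11:4704345-4704374, minus strand: tgaaacttttggagcaagacATTGGgttct
Cox6a1 held a second NRF1 motif and Sdha held others beside the one shown. Each window lies upstream of the RefSeq start it was read from, but those of Atp5c1, Atp5g2, Atp5j and Atp5j2 lie downstream of another annotated start of the same gene. So do the motif shown for Cox6b1 and most of that shown for Atp5k. A match describes letters only, not a bound site.

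Of the 49 members, 44 had a mean of at least 10 normalised counts over the 8 libraries and were tested. A normalised count is the number of reads of a gene divided by the size factor of its library. The 5 untested members are isoforms known from other tissues: Cox6b2, Cox7b2 and Cox8c of testis, Cox8b of heart and muscle, and Cox4i2, known from lung. Cox4i2 had 1.79 to 10.9 normalised counts over the 8 libraries, with 1.79 and 2.82 in statin (5 reads in all), against 10.9 and 7.84 in Ctrl (22 reads), values that do not overlap and were not tested. Cox6b2, Cox7b2, Cox8b and Cox8c had none apart from 0.840 in ctl LPS library 1. Of the tested genes, Cox7a2l, Atp5s and Atp5sl carry a subunit name but are not core subunits: Cox7a2l acts in joining complexes III and IV, Atp5sl (Dmac2) is known from the assembly of complex I, and Atp5s (Dmac2l) is a factor of the ATP synthase. Copies elsewhere in the genome with at least 95% identity over at least 200 bases exist for 15 members (Atp5c1, Atp5f1, Atp5g1, Atp5g2, Atp5h, Atp5k, Atp5l, Atp5o, Cox5b, Cox6c, Cox7a2l, Cox7b, Cox7c, Cycs and Uqcrb), so their counts are less certain. Over 12% of the exonic bases of Uqcrc2, Atp5o, Cox5a and Atp5j overlap another gene on the other strand, and no source says whether reads were counted by strand. Per kb of exon, the highest mean levels over the 8 libraries were 25488 for Atp5b, 21408 for Cox4i1 and 12773 for Uqcrh, and the lowest tested were 107 for Atp5s, 116 for Cox7a1 and 270.1 for Atp5sl, in normalised counts per kb.

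The libraries held 37.0 to 76.4 M reads (M, 1000000) over genes. Dividing by the deposited size factors left unequal totals: 50.3 and 50.7 M normalised counts in statin LPS, 64.0 and 64.2 in ctl LPS, 39.3 and 39.4 in statin, and 36.3 and 36.3 in Ctrl. The counts of members called are therefore also given with each library rescaled to the same total, called equal totals, and other values have the deposited scaling unless equal totals are named. The choice moves most where LPS is compared. That rescaling moved the median log2 change of all genes by -0.11 for statin against Ctrl, by 0.34 for statin LPS against ctl LPS, by -0.82 for ctl LPS against Ctrl, by -0.36 for statin LPS against statin and by 0.46 for the interaction. All 10 macrophage markers were above 0 in every library. Of the markers of other cells, the 3 C1q genes summed to 273 and 365 normalised counts in the statin LPS libraries and to 1634 in ctl LPS library 1, against at most 5.88 elsewhere. The 6 fibroblast markers summed to 443 and 541 in statin LPS and to 897 in ctl LPS library 1, where all 6 were above 0, against 41.3 to 597 elsewhere with 1 or 2 above 0. The 6 lymphocyte markers summed to 145 to 1645, with at most 3 above 0 and Cd3g at 0 in every library. The ribosomal transcript Rn45s took 1.72% of reads in statin library 2, against 0.0705% to 0.153% elsewhere. Counts of members without ctl LPS library 1 and statin library 2 are given beside the results, and whether transcripts of other cells in the statin LPS libraries bear on the results was not tested. Fewer cells and less RNA per cell cannot be told apart in bulk libraries. The labels do not say that libraries of a group came from separate cultures, so p-values measure only the spread between these libraries, which may be technical.

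In resting cells the members' summed level was lower with the statin, and under LPS its direction turned with the scaling. All 49 members together took 0.641% and 0.667% of the reads in the statin libraries, against 0.905% and 0.864% in the Ctrl libraries. In the cells given LPS they took 0.518% and 0.524% in statin LPS, against 0.477% and 0.481% in ctl LPS. As normalised counts, the mean sum in statin cells differed from that in Ctrl cells by -24.4% for complex II, -16.1% for complex III, -9.82% for complex IV and -24.4% for complex V, and with equal totals by -30.2%, -22.6%, -16.8% and -30.2% in the same order. Under LPS the sums went opposite ways with the scaling: over all members, statin LPS stood at a log2 ratio of -0.22 to ctl LPS as deposited and at 0.12 with equal totals. The sum of ctl LPS stood at a log2 ratio of -0.07 to Ctrl as deposited and at -0.88 with equal totals. These sums were not tested.

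**Figure D1:**
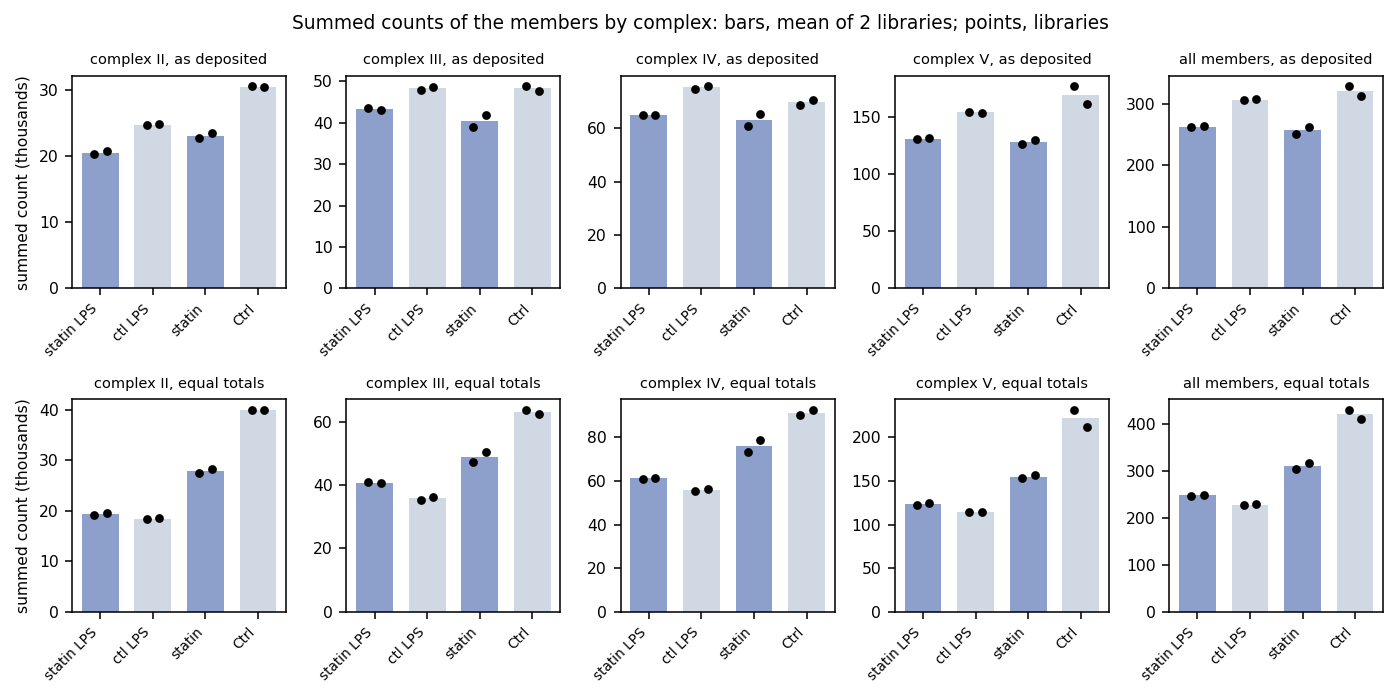
Summed normalised counts of the members of each complex in the 8 libraries (bars, mean of 2 libraries, and points, 1 per library), with the deposited scaling and with equal totals. Both statin points lie below both Ctrl points for each complex, whereas the order of statin LPS and ctl LPS turns with the scaling for complexes II to V.

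In resting cells, no member rose with the statin and 28 of the 44 tested members fell, most of them in complexes II, III and V. The test was limma on log2 of the normalised count plus 1, fitted to all genes and all 8 libraries, with an adjusted p (Benjamini-Hochberg, BH) under 0.05 counted as a change. Among all 11647 genes tested, 25.7% fell and 30.4% rose, so the members' share of 63.6% lower stood above that of all genes. No member had a positive change at an unadjusted p under 0.05 in limma, and neither edgeR nor DESeq2 called one higher. The median log2 change over the tested members was -0.29, against 0.01 over all genes, and 42 of the 44 were below 0. With equal totals the same 28 fell together with 12 more, against 34.7% of all genes lower and 23.5% higher. The median was then -0.40, against -0.10 over all genes. These 40 were all 4 tested members of complex II, 8 of 9 of complex III, 10 of 13 of complex IV, all 17 of complex V, and Cycs. For 40 of the 44 tested members, both statin libraries lay below both Ctrl libraries, against 36.2% of all genes, and for none did both lie above, against 39.3% of all genes. With equal totals 42 lay below and 0 above, against 45.7% and 30.9% of all genes. The 4 whose groups overlapped with the deposited scaling were Uqcrh, Uqcrfs1, Cox7c and Cox7a2l. Of the 28 lower calls, 22 stood whichever single library was left out, and Atp5d, Atp5j, Atp5s, Atp5sl, Sdhd and Uqcrq lost theirs at least once. Without Ctrl library 2, Uqcrh and Cox7a2l were called higher, with log2 changes of 0.47 and 0.36. Without ctl LPS library 1 and statin library 2 together, 22 members were called lower.

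**Figure D2:**
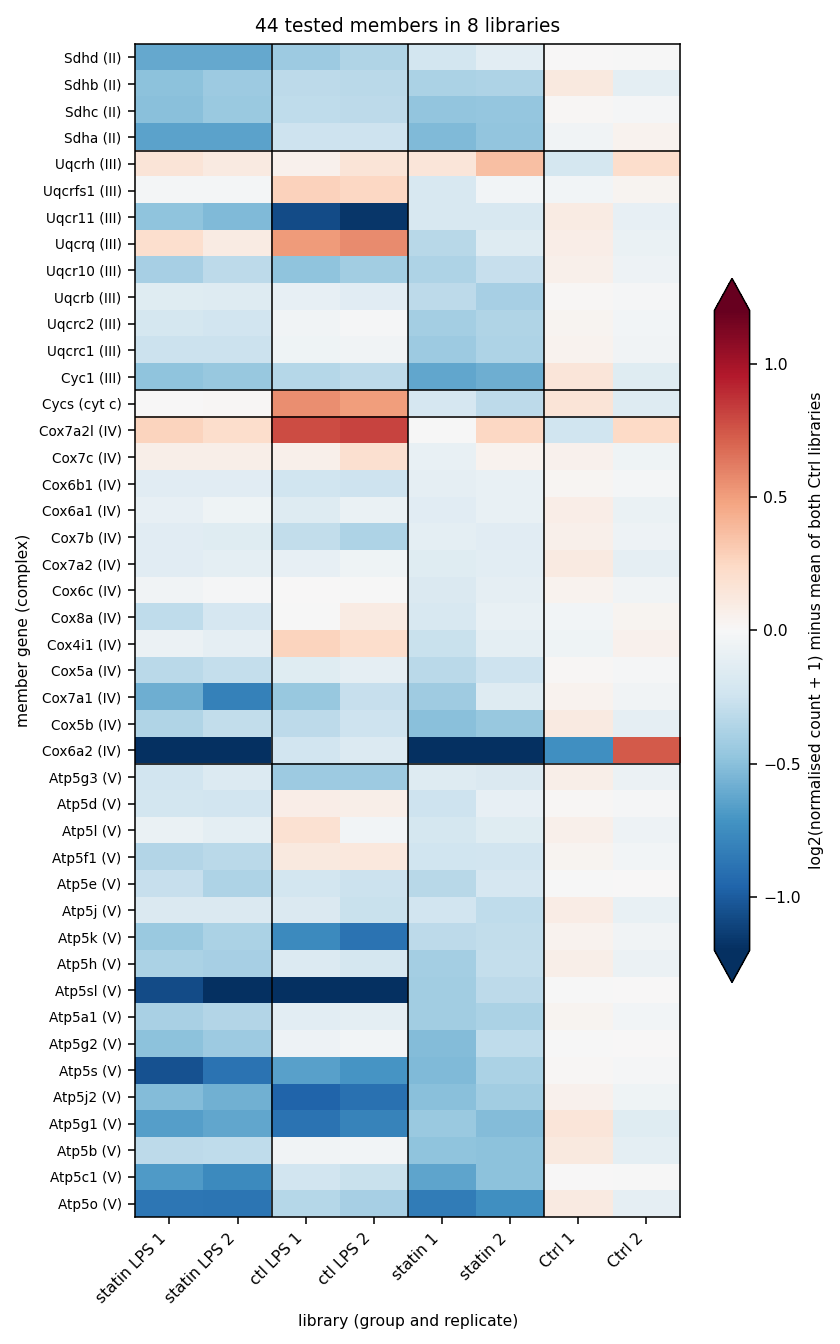
Log2(normalised count + 1) of the 44 tested members in each of the 8 libraries, shown as the difference from the mean of the Ctrl libraries, with members grouped by complex. Cox6a2 is low in both statin and both statin LPS libraries, and Atp5sl, Uqcr11 and Atp5j2 are low in both ctl LPS libraries.

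All 4 subunits of complex II fell with the statin. Sdha, the flavoprotein that oxidises succinate, had 9111 and 9452 normalised counts in statin, against 12741 and 13524 in Ctrl. Both statin libraries were below both Ctrl libraries, and Sdha fell most of the complex (log2 change -0.50 ± 0.06, limma adjusted p = 0.00019). Sdhb, the iron-sulphur subunit, fell as well (log2 change -0.38 ± 0.08, limma adjusted p = 0.00365), as did Sdhc, one of the membrane anchors that bind ubiquinone (log2 change -0.47 ± 0.05, limma adjusted p = 0.000177). Sdhd, the other anchor, had 5350.3 and 5698 normalised counts in statin, against 6244 and 6184 in Ctrl. Its groups did not overlap but lay close, and its fall was the smallest of the complex (log2 change -0.17 ± 0.06, limma adjusted p = 0.0343).

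In complex III, 6 of 9 members fell. Cyc1, the haem subunit that passes electrons to cytochrome c, had 3792 and 3894 normalised counts in statin, against 6466 and 5292 in Ctrl. The Ctrl libraries differed from each other, yet both lay well above the statin libraries, and Cyc1 fell most of the complex (log2 change -0.61 ± 0.09, limma adjusted p = 0.000647). The core proteins Uqcrc1 and Uqcrc2 fell by similar amounts, with log2 changes of -0.41 ± 0.06 and -0.39 ± 0.05 (limma adjusted p = 0.00059 and 0.000549). Of the small subunits, Uqcrb, Uqcr10 and Uqcrq fell, with log2 changes between -0.35 and -0.24. Uqcr11 did not pass the test (log2 change -0.19 ± 0.08, limma adjusted p = 0.0769), nor did the Rieske iron-sulphur protein Uqcrfs1 (log2 change -0.11 ± 0.07, limma adjusted p = 0.194). Uqcrh, the hinge protein, had 7083 and 8211 normalised counts in statin, against 5503 and 7414 in Ctrl. Its statin values reached above its Ctrl values but the groups overlapped, and it had the highest log2 change of all members (log2 change 0.26 ± 0.13, limma adjusted p = 0.131). Cycs, which encodes cytochrome c itself, had 2527 and 2337 normalised counts in statin, against 3223 and 2605 in Ctrl. Both statin libraries lay just below both Ctrl libraries, and Cycs missed the threshold (log2 change -0.25 ± 0.10, limma adjusted p = 0.0527).

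In complex IV, 3 of 13 tested members fell, a share near the 25.7% of all genes, and the median log2 change was -0.14. Cox5a and Cox5b, subunits that sit on the matrix side, fell (log2 change -0.29 ± 0.06, limma adjusted p = 0.0028 for Cox5a and log2 change -0.48 ± 0.08, limma adjusted p = 0.00106 for Cox5b). The others, apart from Cox6a2, had log2 changes between -0.29 for Cox7a1 and 0.12 for Cox7a2l and did not pass the test. With equal totals 10 of the 13 were called lower.

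Cox6a2 had the largest change of any member in statin against Ctrl. It encodes the isoform of subunit VIa known from heart and skeletal muscle, whereas Cox6a1 is the isoform of most tissues. Cox6a2 had 23.3 and 47.0 normalised counts in statin, against 209 and 584 in Ctrl. The libraries within each group differed widely, but both statin values lay far below both Ctrl values (log2 change -3.36 ± 0.46, limma adjusted p = 0.000477). Leaving out single libraries put the log2 change between -4.10 and -2.62, and it was called each time. Cox6a1 had 4884 and 5035 normalised counts in statin, against 5654 and 5086 in Ctrl, and it did not pass the test (log2 change -0.11 ± 0.07, limma adjusted p = 0.183). Counted per kb, Cox6a2 made up 0.399% and 0.778% of the subunit VIa transcripts in the statin libraries, against 3.01% and 8.80% in the Ctrl libraries. Of the other muscle isoforms, Cox7a1 had 57.3 and 69.6 normalised counts in statin, against 79.6 and 75.5 in Ctrl, 2.21% and 2.63% of Cox7a1 and Cox7a2 together per kb in statin, against 2.58% and 2.81% in Ctrl. The 10 striated muscle markers, among them Ckm, Acta1 and Myh7, summed to 9.85 and 5.64 normalised counts in the statin libraries, against 14.1 and 8.82 in the Ctrl libraries, with 3 to 4 of the 10 above 0. Cox6a2 lies at chr7:128205435-128206387 (mm10, GENCODE vM21), and 10.3% of its exonic bases overlap Itgad on the other strand. Reads from Itgad cannot be told apart there.

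In complex V, 15 of 17 members fell, counting Atp5s and Atp5sl, which are grouped here by name. All 5 genes of the catalytic head fell: Atp5a1 and Atp5b, the alpha and beta subunits that bind nucleotides, with log2 changes of -0.40 ± 0.07 and -0.49 ± 0.09 (limma adjusted p = 0.00139 and 0.00238), the rotor subunit Atp5c1 (log2 change -0.56 ± 0.06, limma adjusted p = 0.000193), and Atp5d and Atp5e of the central stalk, with log2 changes of -0.17 and -0.27. All 4 genes of the peripheral stalk, which holds the head still, fell too. Atp5o, the stalk subunit that confers oligomycin sensitivity, had 3450.2 and 3700.4 normalised counts in statin, against 6667 and 5715 in Ctrl. No value overlapped and Atp5o fell most of the complex (log2 change -0.79 ± 0.08, limma adjusted p = 0.000103). It is counted with doubt, as 18.1% of its exonic bases overlap the antisense gene Gm15976. Atp5f1, Atp5h and Atp5j had smaller falls, with log2 changes of -0.24, -0.35 and -0.27. Among the membrane subunits, Atp5j2 (log2 change -0.46 ± 0.06, limma adjusted p = 0.000543) and Atp5k (log2 change -0.30 ± 0.07, limma adjusted p = 0.00814) fell, whereas Atp5l did not pass the test (log2 change -0.18 ± 0.08, limma adjusted p = 0.107). The associated Atp5s and Atp5sl fell, with log2 changes of -0.45 ± 0.13 and -0.37 ± 0.10.

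The c ring, through which the protons pass, is encoded by Atp5g1, Atp5g2 and Atp5g3, whose mature proteins are identical. Atp5g1 had 2061 and 1959 normalised counts in statin, against 3114 and 2535 in Ctrl, and it fell (log2 change -0.48 ± 0.10, limma adjusted p = 0.00313). Atp5g2 had 2474 and 2863 normalised counts in statin, against 3534 and 3553 in Ctrl, and it fell as well (log2 change -0.41 ± 0.07, limma adjusted p = 0.00197). Atp5g3, the most abundant of the group, had 8303 and 8174 normalised counts in statin, against 9658 and 8816 in Ctrl. Its groups did not overlap, yet the change did not pass the test (log2 change -0.16 ± 0.06, limma adjusted p = 0.0518). Atp5g3 made up 64.7% and 62.9% of the c ring counts in the statin libraries, against 59.2% and 59.2% in the Ctrl libraries.

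**Figure D3:**
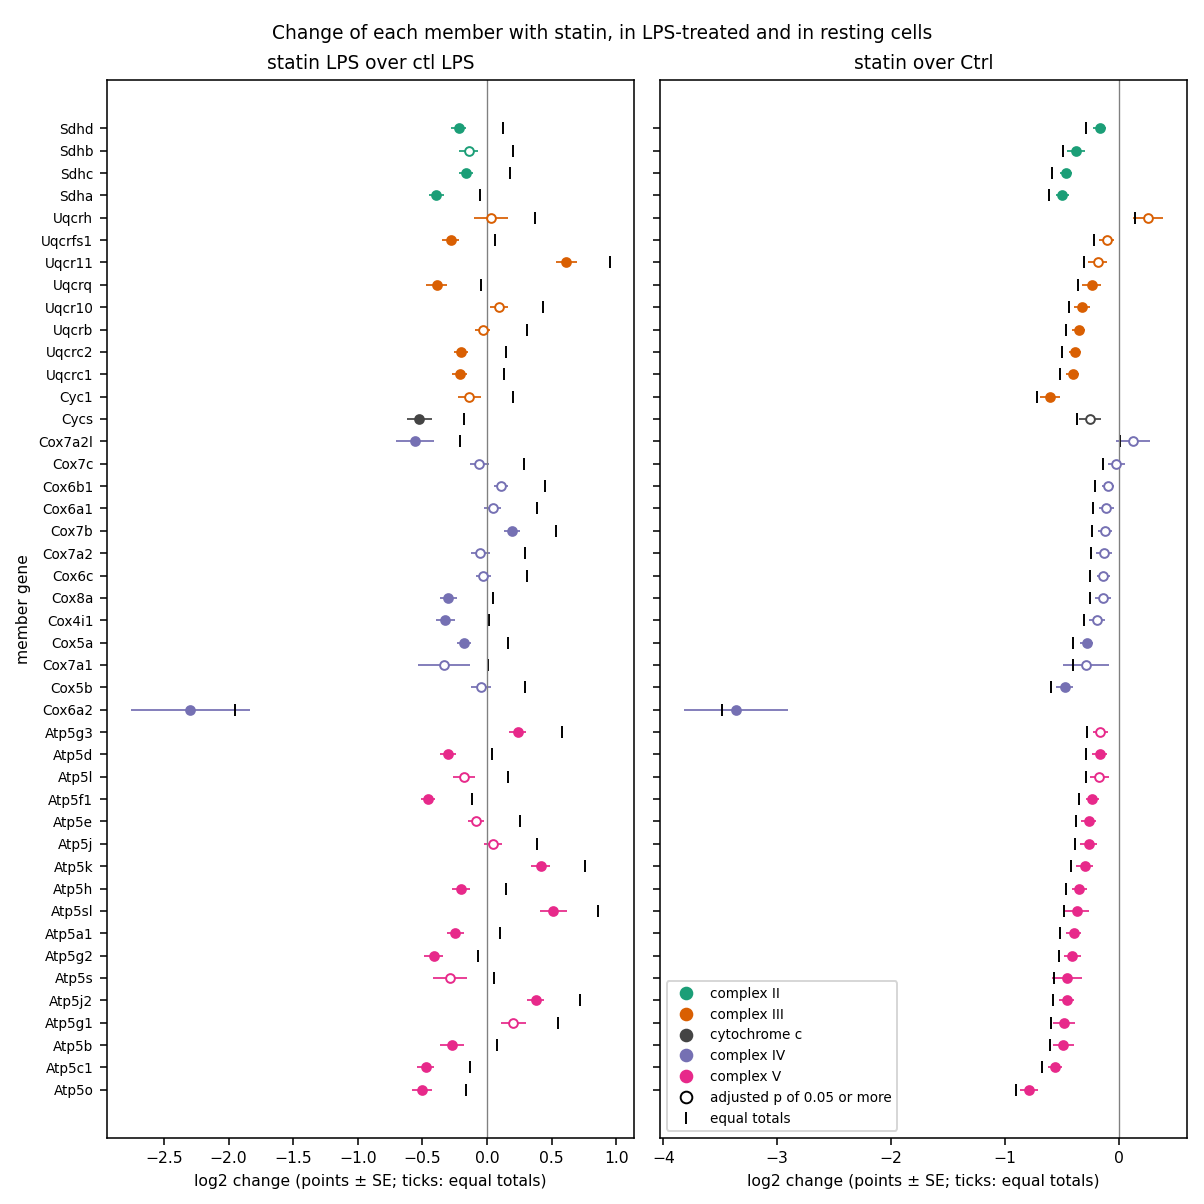
Log2 change (limma, with SE bars) of each tested member for statin LPS over ctl LPS and for statin over Ctrl, with ticks for the values under equal totals. At rest 42 of 44 points lie below 0, and under LPS Uqcr11, Atp5sl, Atp5k, Atp5j2, Atp5g3 and Cox7b lie above 0 with either scaling.

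With LPS the statin moved the members both ways. In statin LPS against ctl LPS, 6 of 44 rose and 21 fell, against 31.4% of all genes higher and 32.9% lower, with a median log2 change of -0.18 against -0.01 over all genes. With equal totals 22 rose and 1 fell, against 52.8% and 17.6% of all genes, and the median was 0.16 against 0.33 over all genes. The 6 that rose did so with either scaling: Uqcr11, Atp5sl, Atp5k, Atp5j2, Atp5g3 and Cox7b. By complex, 3 of 4 fell in complex II, 4 of 9 fell and 1 rose in complex III, 5 of 13 fell and 1 rose in complex IV, and 8 of 17 fell and 4 rose in complex V, while Cycs fell. With equal totals 2 rose in complex II, 5 in complex III, 8 in complex IV and 7 in complex V, and the 1 that fell was of complex IV. Of the 28 members that fell with the statin at rest, 16 also fell under LPS as deposited, 3 rose (Atp5j2, Atp5k and Atp5sl) and 9 were not called. Cox6a2 alone among the members fell under LPS with either scaling. Sdhc, Uqcrc2 and Cox5a were called lower as deposited and higher with equal totals, so their direction hangs on the scaling. Both statin LPS libraries lay above both ctl LPS libraries for 10 members and below for 30, against 43.1% and 45.4% of all genes, and with equal totals above for 31 and below for 8, against 64.1% and 25.9%. Leaving out single libraries, 4 of the 6 higher calls and 11 of the 21 lower calls stood each time, and the lower calls numbered 12 without either statin LPS library and 13 without ctl LPS library 2. Without ctl LPS library 1 and statin library 2 together, 4 members were called higher and 13 lower.

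Uqcr11, a small subunit of complex III, had 1406 and 1363 normalised counts in statin LPS, against 936 and 875 in ctl LPS. Both statin LPS values stood well above both ctl LPS values, and Uqcr11 had the highest log2 change of the members (log2 change 0.61 ± 0.08, limma adjusted p = 0.000238, 0.95 with equal totals). Atp5sl had 496 and 417 normalised counts in statin LPS, against 330.1 and 307 in ctl LPS, and it rose (log2 change 0.51 ± 0.10, limma adjusted p = 0.00265). Atp5k, the e subunit of the ATP synthase membrane part, had 1172 and 1226 normalised counts in statin LPS, against 938 and 861 in ctl LPS (log2 change 0.41 ± 0.07, limma adjusted p = 0.00125). Neither gene's groups overlapped. Atp5j2, the f subunit beside it, had 2434 and 2349.6 normalised counts in statin LPS, against 1801 and 1884 in ctl LPS (log2 change 0.38 ± 0.06, limma adjusted p = 0.00109). The c ring gene Atp5g3 had 7891 and 8218 normalised counts in statin LPS, against 6837 and 6841 in ctl LPS (log2 change 0.24 ± 0.06, limma adjusted p = 0.00991), and Cox7b, a small subunit of complex IV, had 4035 and 4009.8 normalised counts in statin LPS, against 3616 and 3438 in ctl LPS (log2 change 0.19 ± 0.06, limma adjusted p = 0.0243). The calls of Atp5g3 and Cox7b were lost when some single libraries were left out.

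Of the members that fell with the deposited scaling, Cox6a2 had 62.6 and 59.8 normalised counts in statin LPS, against 297 and 312 in ctl LPS. Each statin LPS value was far below each ctl LPS value (log2 change -2.30 ± 0.46, limma adjusted p = 0.00245, -1.95 with equal totals). Its share per kb of the subunit VIa transcripts was 1.04% and 0.964% in statin LPS, against 4.94% and 4.92% in ctl LPS. The striated muscle markers summed to 8.70 and 5.31 normalised counts in statin LPS, against 26.04 and 15.02 in ctl LPS. Cox7a2l had 10027 and 9605 normalised counts in statin LPS, against 14253 and 14593 in ctl LPS, and it fell with the deposited scaling (log2 change -0.56 ± 0.15, limma adjusted p = 0.00989), but not with equal totals, where its log2 change was -0.21. Cycs had 2899.6 and 2921 normalised counts in statin LPS, against 4257 and 4109 in ctl LPS (log2 change -0.52 ± 0.10, limma adjusted p = 0.00161, -0.18 with equal totals). Its fall was called with the deposited scaling only. Atp5o had 3376 and 3363 normalised counts in statin LPS, against 4876 and 4686 in ctl LPS (log2 change -0.50 ± 0.08, limma adjusted p = 0.000673, -0.16 with equal totals), the lowest change of complex V. In complex II, Sdha had 8409 and 8423 normalised counts in statin LPS, against 11083 and 11039 in ctl LPS (log2 change -0.39 ± 0.06, limma adjusted p = 0.000417, -0.05 with equal totals), and Sdhb, the least changed there, had 3068 and 3188 normalised counts in statin LPS, against 3455 and 3453 in ctl LPS (log2 change -0.14 ± 0.08, limma adjusted p = 0.135). Atp5o and Sdha were called lower with the deposited scaling only, and Sdhb was called with equal totals only, as higher (0.20).

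Among the remaining isoform genes, Atp5g1 had 1781 and 1829 normalised counts in statin LPS, against 1523 and 1613 in ctl LPS. Its statin LPS values were higher but did not pass the test (log2 change 0.20 ± 0.10, limma adjusted p = 0.0942). Atp5g2 had 2526 and 2622 normalised counts in statin LPS, against 3396 and 3460.5 in ctl LPS, and it fell with the deposited scaling (log2 change -0.41 ± 0.07, limma adjusted p = 0.00142, -0.07 with equal totals). Atp5g2 made up 20.7% and 20.7% of the c ring counts in statin LPS, against 28.9% and 29.1% in ctl LPS, a share that does not depend on the scaling. Cox4i1 (log2 change -0.32 ± 0.07, limma adjusted p = 0.00445) and Cox8a (log2 change -0.30 ± 0.07, limma adjusted p = 0.00497) fell with the deposited scaling and had log2 changes of 0.02 and 0.04 with equal totals. Cox6a1, Cox6b1, Cox7a1 and Cox7a2 had log2 changes of 0.04, 0.11, -0.33 and -0.05 and did not pass the test.

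**Figure D4:**
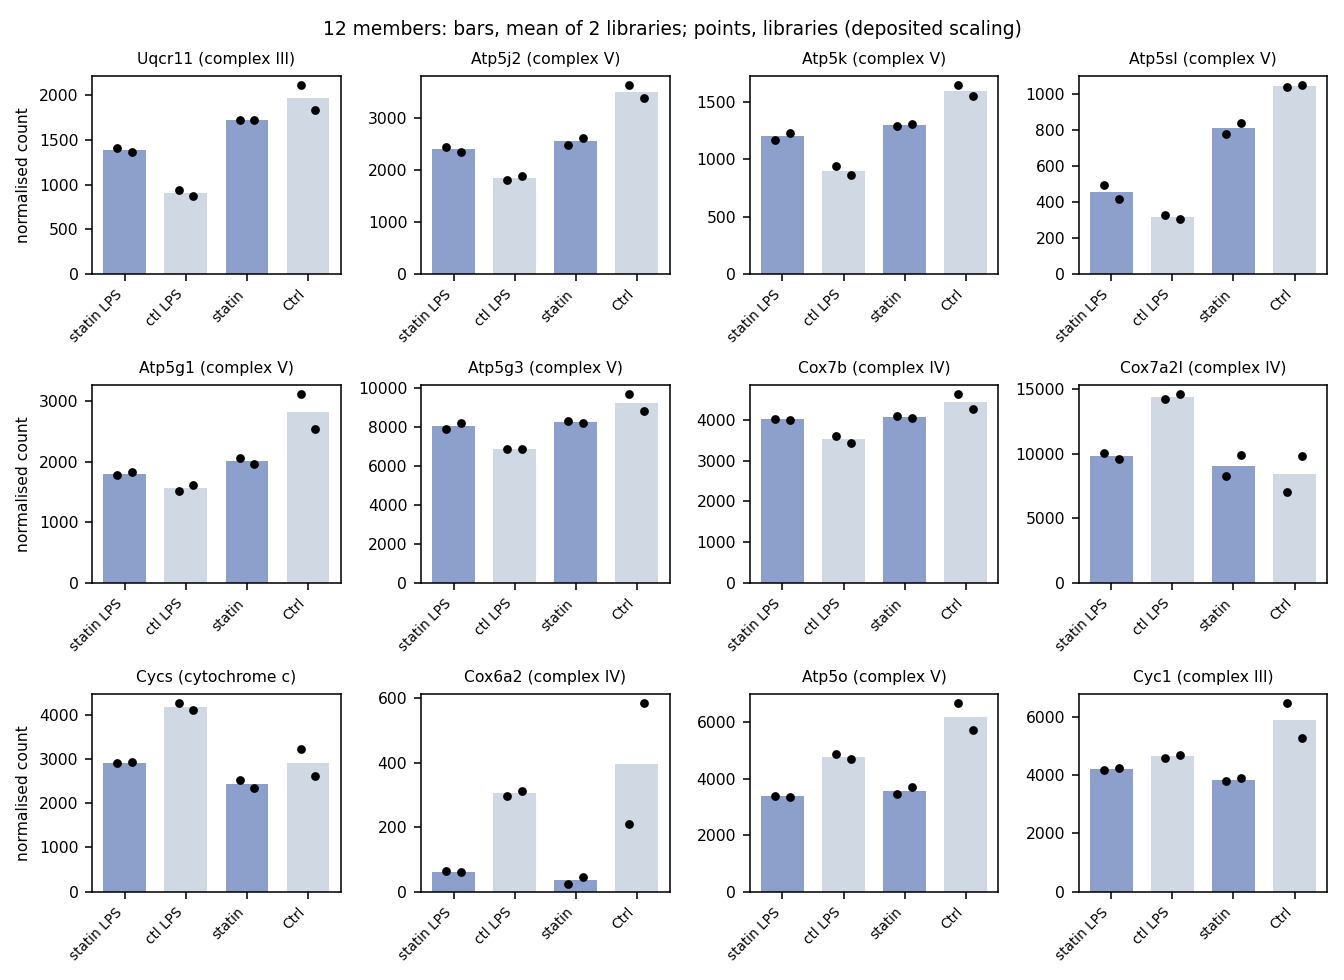
Normalised counts in each of the 8 libraries (points) for Uqcr11, Atp5j2, Atp5k, Atp5sl, Atp5g1, Atp5g3, Cox7b, Cox7a2l, Cycs, Cox6a2, Atp5o and Cyc1, with groups in the order statin LPS, ctl LPS, statin, Ctrl. The ctl LPS points are the lowest of the 4 groups for Uqcr11, Atp5j2, Atp5k, Atp5sl, Atp5g1, Atp5g3 and Cox7b, and the highest for Cox7a2l and Cycs.

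LPS alone lowered 21 members with either scaling. In ctl LPS against Ctrl, 5 of 44 rose and 21 fell, against 39.9% of all genes higher and 37.6% lower, with a median log2 change of -0.19 against 0.02 over all genes. The same 21 fell with equal totals, where 42 fell and none rose, also at an unadjusted p under 0.05, against 68.8% and 17.9% of all genes. The median was then -1.01, against -0.80 over all genes. The members that rose as deposited were Uqcrfs1, Uqcrq, Cycs, Cox4i1 and Cox7a2l, of which all but Cox7a2l fell with equal totals. Both ctl LPS libraries lay above both Ctrl libraries for 8 members and below for 28, against 45.3% and 43.1% of all genes, and with equal totals above for 0 and below for 43, against 20.4% and 72.8%. Atp5sl had 330.1 and 307 normalised counts in ctl LPS, against 1044 and 1049.7 in Ctrl. Every ctl LPS value was under every Ctrl value by a wide margin (log2 change -1.72 ± 0.10, limma adjusted p = 8.87e-07). Uqcr11 had 936 and 875 normalised counts in ctl LPS, against 2111 and 1841 in Ctrl (log2 change -1.12 ± 0.08, limma adjusted p = 2.60e-06), Atp5j2 had 1801 and 1884 normalised counts in ctl LPS, against 3622 and 3387 in Ctrl (log2 change -0.93 ± 0.06, limma adjusted p = 2.17e-06) and Atp5g1 had 1523 and 1613 normalised counts in ctl LPS, against 3114 and 2535 in Ctrl (log2 change -0.84 ± 0.10, limma adjusted p = 5.21e-05). Their equal-total log2 changes were -2.53 for Atp5sl, -1.94 for Uqcr11, -1.75 for Atp5j2 and -1.66 for Atp5g1. Cox7a2l, which rose with the deposited scaling, had 14253 and 14593 normalised counts in ctl LPS, against 7027 and 9824 in Ctrl, and Cycs had 4257 and 4109 normalised counts in ctl LPS, against 3223 and 2605 in Ctrl. In both, the ctl LPS values lay above all Ctrl values. Leaving out single libraries, 4 of the 5 higher calls and 16 of the 21 lower calls stood each time, and without ctl LPS library 1 and statin library 2 together 4 members were called higher and 17 lower.

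In cells given the statin, LPS changed few members with the deposited scaling. In statin LPS against statin, 4 of 44 rose and 4 fell, against 29.2% of all genes higher and 29% lower, with a median log2 change of -0.03 against -0.02 over all genes. With equal totals 39 fell and none rose, also at an unadjusted p under 0.05, against 57.5% and 13.2% of all genes. The median was then -0.39, near the -0.38 over all genes. Both statin LPS libraries lay above both statin libraries for 15 members and below for 16, against 41% and 42.6% of all genes, and with equal totals above for 0 and below for 42, against 18.2% and 70.1%. Uqcrb, Uqcrc2, Uqcrq and Cycs rose with the deposited scaling, and Sdhd, Uqcr11, Atp5s and Atp5sl fell with either. Atp5sl had 496 and 417 normalised counts in statin LPS, against 782 and 840.3 in statin (log2 change -0.83 ± 0.10, limma adjusted p = 0.000246), Atp5s had 116 and 129 normalised counts in statin LPS, against 166 and 184 in statin (log2 change -0.51 ± 0.13, limma adjusted p = 0.00998) and Sdhd had 4058 and 4047 normalised counts in statin LPS, against 5350.3 and 5698 in statin (log2 change -0.45 ± 0.06, limma adjusted p = 0.000294). The groups of these 3 did not overlap. Uqcrq, a small subunit of complex III, had 5694 and 5292 normalised counts in statin LPS, against 3941 and 4453 in statin, and it rose as deposited (log2 change 0.39 ± 0.08, limma adjusted p = 0.00398), with 0.03 under equal totals. Of these calls, Sdhd, Atp5sl and Uqcrq kept theirs whichever single library was left out. The counts moved with every library: 9 higher and 8 lower without either Ctrl library, 2 higher without either statin or either ctl LPS library, and 1 higher without either statin LPS library. Without ctl LPS library 1 and statin library 2 together, 1 member was called higher and 2 lower.

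The statin effect under LPS differed from that at rest for 16 of the 44 tested members, against 55.6% of all genes. This was judged by the interaction, which is the log2 change of statin LPS over ctl LPS minus that of statin over Ctrl. It was positive and called for 14 members, against 25.5% of all genes, and negative and called for 2, against 30.1%, with a median of 0.16 against -0.03 over all genes. The 14 were also called with equal totals, where 39 members were positive and called, against 50.9% of all genes, and none was negative at an unadjusted p under 0.05, against 16.1% called negative of all genes. The lowest adjusted p-values belonged to Atp5j2 (interaction 0.84 ± 0.09, limma adjusted p = 0.000106), Uqcr11 (interaction 0.80 ± 0.11, limma adjusted p = 0.000481), Atp5k (interaction 0.72 ± 0.10, limma adjusted p = 0.00052), Atp5sl (interaction 0.88 ± 0.15, limma adjusted p = 0.00118), Atp5g1 (interaction 0.69 ± 0.14, limma adjusted p = 0.0029) and Atp5g3 (interaction 0.40 ± 0.09, limma adjusted p = 0.00494). In all of these, the ctl LPS libraries were the lowest of the 4 groups. Of complex III, Cyc1, Uqcr10 and Uqcrb were called as well, of complex II Sdhc, of complex IV Cox5b, Cox6b1 and Cox7b, and of complex V Atp5j. Cyc1 had 4194 and 4257 normalised counts in statin LPS, 4604 and 4697 in ctl LPS, 3792 and 3894 in statin and 6466 and 5292 in Ctrl. Its statin values were the lowest of the 4 groups and its Ctrl values the highest (interaction 0.47 ± 0.12, limma adjusted p = 0.0124). Negative interactions were called for Cox7a2l (interaction -0.68 ± 0.21, limma adjusted p = 0.0225) and Atp5f1 (interaction -0.22 ± 0.08, limma adjusted p = 0.0402). With equal totals the interaction of Atp5f1 was 0.24 and called positive, the opposite direction, and that of Cox7a2l was -0.22, no longer called. Of the 14 positive calls, 9 stood whichever library was left out, and 5 stood without ctl LPS library 1 and statin library 2 together: Atp5j2, Atp5k, Atp5sl, Uqcr10 and Uqcr11. Neither negative call stood each time: none was left without statin library 2, or without any 1 of the ctl LPS or statin LPS libraries.

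**Figure D5:**
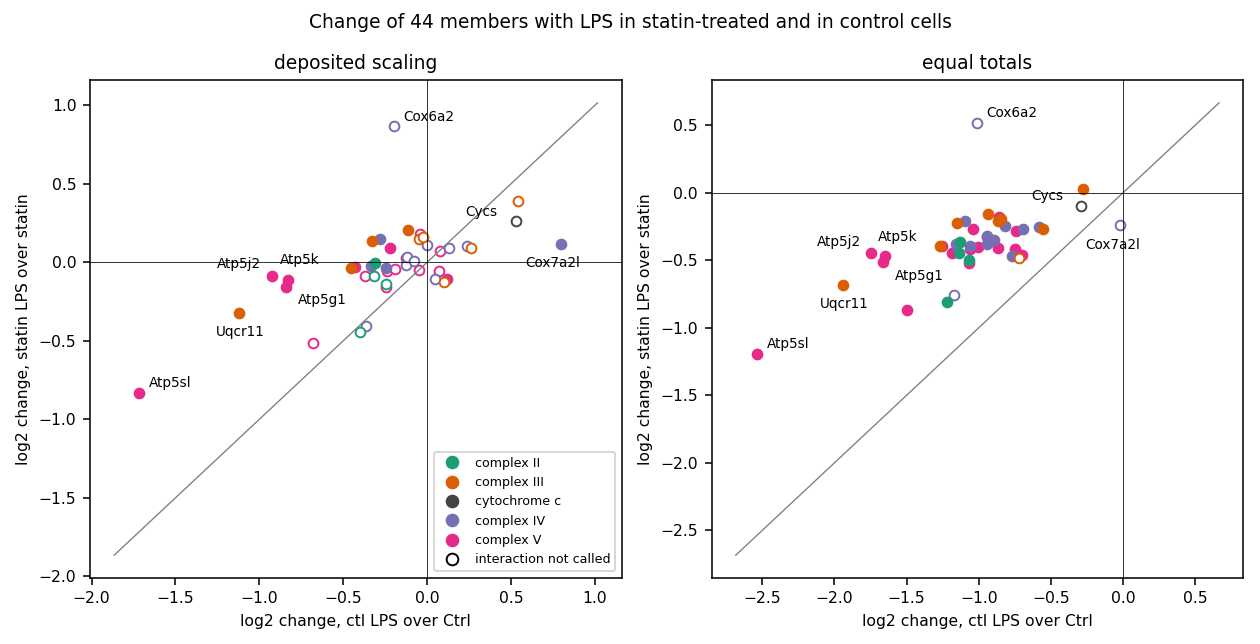
Log2 change of each tested member for ctl LPS over Ctrl (x axis) against that for statin LPS over statin (y axis), with the deposited scaling and with equal totals, and filled points where the interaction was called, colours for the complexes and a diagonal line of equal change. Atp5sl lies lowest on the x axis at -1.72 as deposited, and all points lie below 0 on the x axis with equal totals.

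Members with and without the NRF1, ETS and CCAAT motifs were counted side by side, with no test. The YY1 motif lay before 1 member only and was left out. Among all genes, 25.7% fell at rest, and under LPS 31.4% rose and 32.9% fell. With equal totals, 34.7% of all genes fell at rest and 52.8% rose under LPS. Of the 7 members with the NRF1 motif, 6 fell in statin against Ctrl with a median log2 change of -0.35, and of the 25 tested members with a promoter entry and no such motif 12 fell, with a median of -0.25. With the ETS motif 4 of 9 fell with a median of -0.18, and without it 14 of 23 fell, with a median of -0.30. With the CCAAT motif 9 of 18 fell with a median of -0.28, and without it 9 of 14 fell, with a median of -0.23. In statin LPS against ctl LPS, 1 of the 7 with the NRF1 motif rose and 5 fell, and without it 4 of 25 rose and 9 fell. With the ETS motif 1 of 9 rose and 2 fell there, and without it 4 of 23 rose and 12 fell. With the CCAAT motif 3 of 18 rose and 6 fell there, and without it 2 of 14 rose and 8 fell. With equal totals, 7 of 7 with the NRF1 motif and 21 of 25 without it fell at rest, and under LPS 2 of 7 with it and 15 of 25 without it rose. With equal totals 8 of 9 with the ETS motif and 20 of 23 without it fell at rest, and under LPS 6 of 9 with it and 11 of 23 without it rose. For CCAAT, 16 of 18 with it and 12 of 14 without it fell at rest with equal totals. Under LPS 10 of 18 with CCAAT and 7 of 14 without it rose with equal totals.

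Gene groups that work beside these complexes were counted in the same fit. Beside their counts, the shares of all genes were 30.4% higher and 25.7% lower at rest and 31.4% higher and 32.9% lower under LPS, and with equal totals 23.5% and 34.7% at rest and 52.8% and 17.6% under LPS. Beside their medians, those over all genes were 0.01 at rest and -0.01 under LPS, and with equal totals -0.10 and 0.33. Of 36 tested nuclear subunits of complex I, which feeds electrons from NADH, 27 fell in statin against Ctrl, and in statin LPS against ctl LPS 14 fell and 2 rose. Ndufa5 was the lowest called at rest (log2 change -0.52), and under LPS the highest was Ndufa4 (0.52), which is named for complex I but known as a subunit of complex IV. The median log2 change of the complex I genes was -0.36 at rest and -0.14 under LPS, and under LPS 0.20 with equal totals, where 33 fell at rest and 19 rose and 2 fell under LPS. Of 77 mitochondrial ribosomal proteins, which translate the mitochondrial subunits, 45 fell and 3 rose at rest, from Mrps18a (-0.80) to Mrps6 (0.49), and 22 fell and 16 rose under LPS, from Mrpl13 (-1.17) to Mrpl41 (1.31). The share that fell was 58.4% at rest and 28.6% under LPS, the second below that of all genes. Their median was -0.26 at rest and -0.04 under LPS, and under LPS 0.30 with equal totals, where 60 fell and 2 rose at rest and 5 fell and 44 rose under LPS. Of 14 enzymes of the citrate cycle, 10 fell and 2 rose at rest and 6 fell and 1 rose under LPS, with medians of -0.27 and -0.03, and under LPS 0.31 with equal totals, where 11 fell at rest and 8 rose under LPS. Idh2, which makes NADPH, fell most at rest (-0.72), and citrate synthase, Cs, fell most under LPS (-0.49), whereas Ogdh rose in both (log2 changes 0.18 at rest and 0.29 under LPS). Ogdh was not called at rest with equal totals, nor was Cs under LPS.

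Of 42 tested assembly factors of complexes II to V, 12 fell and 3 rose at rest, and 14 fell and 8 rose under LPS, with medians of -0.15 and -0.11. The shares that fell, 28.6% and 33.3%, are near those of all genes. With equal totals 21 fell and 2 rose at rest and 8 fell and 21 rose under LPS. The median under LPS was then 0.23, against 0.33 over all genes. Cox17, the copper chaperone of complex IV, rose at rest (0.93), and Bcs1l, which inserts the Rieske protein into complex III, fell (-0.77). Under LPS the assembly factor of complex II Sdhaf1 rose (1.38) and Cox18, which inserts a mitochondrial subunit of complex IV into the membrane, fell (-1.78). The 6 tested genes from a list of carriers and porins tied to ATP export all fell at rest, from Vdac1 (-0.46) to Vdac2 (-0.16). Under LPS 5 of them fell, from Vdac3 (-0.47) to Vdac2 (-0.20), which stood at 0.15 with equal totals. None of these 5 calls held with equal totals. Of 16 tested regulators of nuclear respiratory genes, 5 fell and 4 rose at rest, and 7 fell and 7 rose under LPS, with medians of -0.07 and -0.08, and under LPS 0.26 with equal totals, where 7 fell and 3 rose at rest and 3 fell and 8 rose under LPS. At rest Gabpb2, a subunit of the factor GABP, fell most (-0.72) and Myc rose most (2.94), and under LPS Tfb1m, a factor of mitochondrial ribosomal RNA, fell most (-0.996) and Tfeb, a regulator of lysosomal genes, rose most (1.84). Singled out after its value was seen, Nrf1, whose protein binds the NRF1 motif, fell with the statin at rest (log2 change -0.47). Whether this bears on the members with that motif was not tested.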

How the data were processed

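Total RNA of RAW macrophages was sequenced as stranded libraries after ribosomal RNA depletion, per the labels. The signal used was the deposited normalised count, the read count of each gene divided by the size factor of its library by the authors. The submitters' processing notes name STAR (2.5.3), HTSeq (0.9.1), DESeq2 (1.18.1) and the build mm10, without roles. The deposited comparisons of the authors (fold changes, p-values, enrichment terms) were not used, nor were 12 further columns of per-sample values, and 27 of 24421 entries carry a date in place of a symbol. Groups came from the sample titles. Columns were matched to samples by group and replicate number.

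In R (4.3.3), log2(normalised count + 1) was fitted with limma (3.58.1), 1 mean per group, all 8 libraries, eBayes with a trend, for genes with a mean of at least 10. All tests were two-sided, with BH adjustment over the genes tested in each comparison. The scripts were tested on simulated data with known changes. A log2 change on this scale understates changes of genes with low counts. Every value was a whole number of reads (100% within 0.01 reads) once divided by the value of 1 read, so reads were recovered. On these, edgeR (4.0.16) called 6659 genes in statin against Ctrl, 7475 in statin LPS against ctl LPS, 9100 in ctl LPS against Ctrl, 6793 in statin LPS against statin and 6468 in the interaction. DESeq2 (1.42.0), other scalings, filters and left-out libraries were alternatives.

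Per-library values were given for the members with the highest and lowest change of each complex in both statin comparisons, the 4 called members with the largest changes in both LPS comparisons, the 6 with the lowest interaction p, and the isoform genes. Of the neighbouring gene groups, the called genes with the highest and lowest change in the statin comparisons were named, apart from a gene that is not reported here. Other values were added after they were seen. The members and lists were chosen with earlier results of these data known. Exonic lengths, overlaps and near copies came from GENCODE vM21.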

Additional observations from a re-analysis of the deposited data

Results flagged for a closer look

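For 16 of the 44 tested members the statin effect with LPS differed from that without LPS by the interaction test of limma (adjusted p under 0.05). The share of all genes was 55.6%. The interaction was positive for 14 members, against 25.5% of all genes, and negative for 2, against 30.1%. Among the genes grouped by name with complex V, of which Atp5sl is not a core subunit, the interaction on the log2 scale was 0.88 for Atp5sl, 0.84 for Atp5j2, 0.72 for Atp5k, 0.69 for Atp5g1, 0.40 for Atp5g3, 0.31 for Atp5j and -0.22 for Atp5f1. In complex III it was 0.80 for Uqcr11, 0.47 for Cyc1, 0.42 for Uqcr10 and 0.32 for Uqcrb, and in complex II 0.31 for Sdhc. In complex IV it was 0.43 for Cox5b, 0.31 for Cox7b, 0.21 for Cox6b1 and -0.68 for Cox7a2l. The positive interactions kept their sign and call with equal totals, whereas that of Atp5f1 changed sign and was called positive.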

How the results depend on the processing

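The scaling of the libraries moved more results than any other choice tried. With equal totals, 23 of the 44 tested members changed sign in statin LPS against ctl LPS, 12 in ctl LPS against Ctrl, 17 in statin LPS against statin, 13 in the interaction and 0 in statin against Ctrl, whether called or not. Of these, 19, 12, 15, 10 and 0 in the same order were called with at least 1 of the scalings. With equal totals, statin against Ctrl had a median of -0.40, statin LPS against ctl LPS 22 higher, 1 lower and a median of 0.16, ctl LPS against Ctrl 0 higher, 42 lower and -1.01, statin LPS against statin 0 higher, 39 lower and -0.39, and the interaction 39 higher, 0 lower and 0.62. Over all genes the medians with equal totals were -0.10, 0.33, -0.80, -0.38 and 0.43 in the same order. Of the genes that the rule named for the same comparison and that were called there with either scaling, Cox4i1 (0.0187), Cox7a2 (0.29), Cox8a (0.0433), Sdhb (0.20) and Vdac2 (0.15) in statin LPS against ctl LPS and the interaction of Atp5f1 (0.24) changed sign. Log2 ratios of summed counts changed sign to 0.0726, 0.19, 0.13, 0.11 and 0.12 for complexes II, III, IV, V and all members in statin LPS against ctl LPS, to -0.30 and -0.71 for cytochrome c and complex IV in ctl LPS against Ctrl, and to -0.26, -0.10, -0.31, -0.33 and -0.33 for complex III, cytochrome c, complex IV, complex V and all members in statin LPS against statin. Without the 3 most abundant members, the sums turned to 0.0036 for complex III and -0.11 for complex IV in ctl LPS against Ctrl and to -0.0666 for complex V and -0.0091 for all members in statin LPS against statin.

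With quantile normalisation, the medians were -0.40 for statin against Ctrl, 0.000258 for statin LPS against ctl LPS (5 lower), -0.66 for ctl LPS against Ctrl (0 higher, 37 lower), -0.21 for statin LPS against statin (0 higher, 20 lower) and 0.47 for the interaction (29 higher, 0 lower), and Cox4i1 (0.10), Vdac2 (0.20) and the interaction of Atp5f1 (0.31) changed sign. TMM scaling gave medians of -0.25 in ctl LPS against Ctrl and 0.21 in the interaction (1 lower), and edgeR -0.26 and 0.21 (1 lower). DESeq2, no filter and the replicate block each left 1 lower interaction call. Fitted on its own libraries, statin LPS against statin had 7 higher. Without ctl LPS library 1 and statin library 2, statin LPS against ctl LPS had 13 lower, statin LPS against statin 1 higher, 2 lower and a median of 0.016, and the interaction 5 higher and 0 lower. The cause of these moves was not tested. Over all alternatives, 19 to 40 members were called lower in statin against Ctrl.

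Leaving out 1 library at a time gave 0 to 2 higher, 23 to 35 lower and a median of -0.35 to -0.26 in statin against Ctrl, 4 to 8, 12 to 23 and -0.19 to -0.17 in statin LPS against ctl LPS, 4 to 6, 17 to 25 and -0.20 to -0.13 in ctl LPS against Ctrl, 1 to 9, 3 to 8 and -0.033 to 0.016 in statin LPS against statin, and 10 to 21, 0 to 3 and 0.12 to 0.21 in the interaction. Replicate numbers did not pair the libraries (correlations of -0.051 to 0.0959 between groups over 11647 genes), and with the replicate block the calls were 0 higher and 28 lower, 6 and 21, 5 and 21, 4 and 4, and 13 and 1 in the same order of comparisons. With 2 libraries a group, 4 residual degrees of freedom set the precision.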

Other observations

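Among the 44 tested members, those with fewer exonic bases had the smaller median statin change at rest. Exonic bases were joined over the annotated transcripts of a gene, so they are not the length of a single transcript. The 18 members with under 800 exonic bases had a median log2 change of -0.23 in statin against Ctrl and the 26 longer ones -0.38, whereas over all genes with a length the 316 short ones had a median of -0.13 and the 10880 longer ones 0.02. Spearman's rho between length and log2 change was -0.36 across the 44 members and 0.21 across 11196 genes, and Pearson's r with log2 length was -0.04 and 0.12. These are correlations across genes that share the same 8 libraries, and genes are not independent replicates.

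The spread between the libraries of a group was uneven. The robust SD of the members' log2 difference between libraries 1 and 2 was 0.0558 in statin LPS, 0.0726 in ctl LPS, 0.0870 in statin and 0.108 in Ctrl. The fit assumes 1 spread for all groups. The statin against Ctrl comparison fitted on its own 4 libraries called 19 members lower, against 17.1% of all genes. The fit to all 8 libraries called 28 lower, against 25.7% of all genes.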
